A study of Rattus norvegicus with 20 samples.

Results

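Epithelial cells that had been cultured from rat thymus and from the whisker follicle were each placed in developing skin, allowed to take part in hair follicles, taken back out of the grafts and cultured again. The comparison described here sets the recovered thymic cells against the recovered whisker cells, and thus asks what still separated the transcriptomes of cells from a non-hairy organ and from a hair follicle once both had passed through skin. The 4 samples, 2 of each kind, were chosen by their labels out of 20 RNA-seq samples, which cover thymus, whisker, bladder dome, trachea and vagina (5 tissues), each as cultured for grafting (1st round) and as recultured from the grafts (2nd round), with 2 samples per tissue and round. The description covers all 13302 genes that reached 1 CPM (reads relative to the scaled size of the library) in at least 1 of the 20 samples.

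All donors were Sprague-Dawley rats that express enhanced green fluorescent protein in every cell from an actin promoter transgene (act-EGFP). The thymus donor is labelled as 4 months old and the whisker donor as 57 days old, and the labels put the trachea and vagina donors at 200 days and the bladder donor 1 day above that. Both cell types grew on irradiated 3T3-J2 mouse fibroblasts and were sorted for EGFP before RNA was extracted, and the hosts of the grafts were nude mice. The recovered thymic cells were a bulk population (number 907) from a frozen stock, whereas the recovered whisker cells were subclone 14, the progeny of 1 cell. Before transplantation the whisker cells were clone 7, and the labels call the thymic cells both a bulk population and clone 9. The labels do not say whether the samples of a group came from separate animals or cultures. The p-values therefore measure only the spread between samples of a group, pooled over all groups of the series, which may be technical. Donor, age, any difference of sex, clonality and tissue of origin cannot be told apart.

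The thymus holds an epithelial network, of endodermal origin, in which T cells mature and are tested for reaction against the body's own proteins. Its epithelium forms under the control of pharyngeal pouch factors such as Hoxa3 and Eya1. The whisker follicle is a skin appendage whose stem cells renew the hair and can also make the cornifying layers of epidermis, where keratinocytes switch to keratin 10 and build a barrier of cross-linked protein and lipid.

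The 4 libraries held 22851699 and 29344701 counted reads (recovered thymus) and 22714070 and 25293172 (recovered whisker), so that 3 reads in one library corresponded to 0.099 to 0.138 CPM. The median spread between the 2 samples of a group was 2.32% of the mean (SD) in recovered thymus and 4.83% in recovered whisker. On log2 CPM over all genes tested, the samples of one tissue lay 0.262 (thymus) and 0.343 (whisker) apart as root mean square, against 1.18 to 1.19 between tissues. No library stood apart from its partner.

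A gene was called when its Benjamini-Hochberg adjusted p in limma voom was under 0.05 and its fold at least 2. Single values in parentheses after a gene are log2 fold changes of recovered thymus over recovered whisker, followed by ± SE where given, with n = 2 and 2, unless another comparison is named. By this rule 16.7% of the genes tested differed, 10.4% being higher and 6.21% lower in recovered thymic cells. The shift was uneven in size as well as in number. The median log2 fold change of the called genes was 2.21 on the thymus side and -1.64 on the whisker side, and by the fitted values 287 genes were at least 16-fold higher in thymus against 65 at least 16-fold lower. Of the genes called higher in thymus, 121 had no read in either whisker library, while 19 of those called lower had none in either thymic library. Over all genes the median log2 fold change was 0.00358.

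Symbols could be attached to 2311 of the identifiers tested, because the deposited counts carry identifiers only and the study's own tables of changed genes, which were available in part and in alphabetical order, were the source of the names. Genes with a symbol were therefore rich in changed genes by construction. Of them 37.0% were called, 23.2% higher and 13.9% lower, with a median log2 fold change of 0.10. Counts in recovered cells for each gene list below are to be read beside these shares and not only beside those of all genes. Members and lists were also chosen with earlier results of these data known, so the number of calls in a list is partly built in. Most symbols lie early in the alphabet. Hair and thymus regulators such as Lhx2, Gata3, Hr, Lef1 and Foxn1 were not paired with an identifier and were not analysed here.

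**Figure D1:**
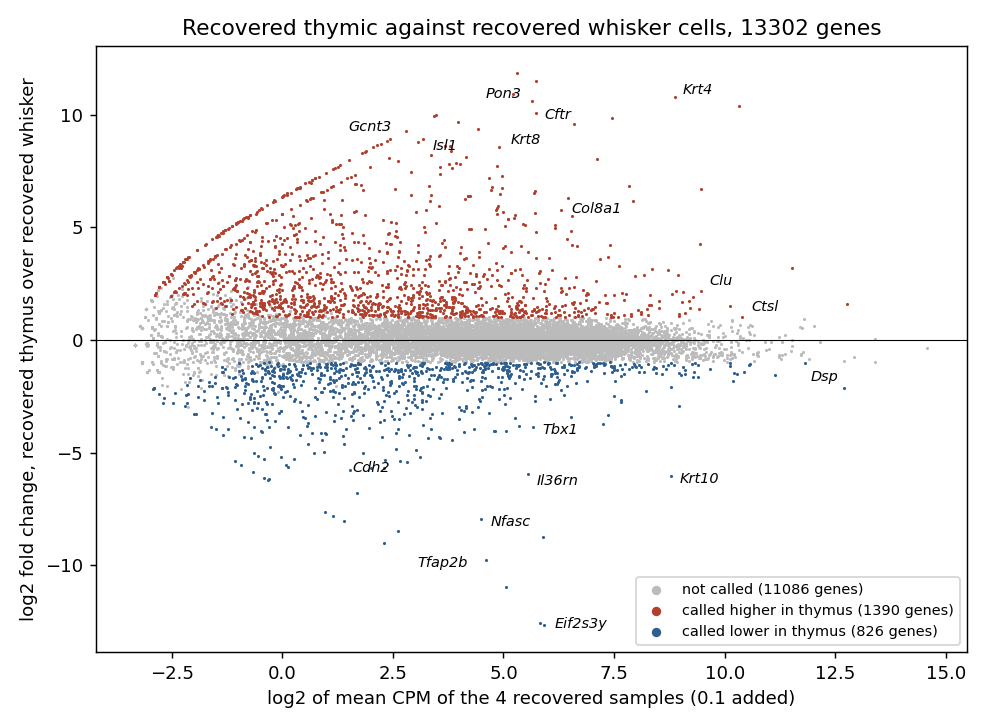
Each of the 13302 genes is plotted by its mean abundance in the 4 recovered samples (log2 CPM after adding 0.1) and its log2 fold change of recovered thymus over recovered whisker, with called genes in red (1390, higher in thymus) and blue (826, lower). More red than blue points lie at least 16-fold from 0 (287 against 65), with Krt4 at 10.77 near the top and Eif2s3y at -12.64 at the bottom.

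All 4 simple and mucosal keratins that could be named, of 8 listed, were called higher in thymic cells, with a median log2 fold change of 8.33. Of 20 listed keratins and keratin-associated proteins of skin and hair, 18 could not be named, and of the 2 that were tested keratin 10 of suprabasal epidermis was called lower. Krt4, a keratin of mucosal stratified epithelium, stood at 968 and 910.4 CPM in the recovered thymic samples and at 0.737 and 0.368 CPM in the recovered whisker samples. Krt8, which pairs with Krt18 in simple epithelia, stood at 59.6 and 59.9 CPM against 0.04605 and 0.328 CPM. Krt10 showed the opposite order, at 14.4 and 12.02 CPM in thymus and 821 and 917 CPM in whisker. In each of these genes both samples of one tissue lay far above both samples of the other. The log2 fold changes were 10.77 ± 1.37 for Krt4 (SE, adjusted p = 6.94e-06), 8.55 ± 0.69 for Krt8 (adjusted p = 3.76e-08) and -6.05 ± 0.14 for Krt10 (adjusted p = 4.47e-14). Krt19, a keratin of glandular and ductal epithelium, measured 36.99 and 33.1 CPM against 0.04605 and 0.205 CPM (log2 fold change 8.103 ± 0.79). Krt8 and Krt19 also had few whisker reads, and their values were 7.41 and 7.27 without whisker replicate 1 and 9.74 and 8.96 without replicate 2. Krt18 had only 3 reads over both whisker libraries, and its ratio was 102 (95% counting interval 34.6 to 497). The hair keratin-associated protein Krtap3-2 was near the detection floor in both tissues (0.212 and 0.363 CPM against 0.414 and 0.123 CPM) and was not called.

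Among 16 thymic identity and patterning factors that could be tested of 26 listed, 8 were called higher and 2 lower in thymic cells. Their median log2 fold change was 1.71, or 1.37 when genes with no read in one group are set at the bound that 3 reads allow. Isl1, a LIM homeobox factor of the pharyngeal endoderm, measured 18.8 and 17.2 CPM in thymus and 0.04605 and 0 CPM in whisker. Hoxa3, which is required for the third pharyngeal pouch, measured 10.4 and 10.3 CPM against 0 and 0.0409 CPM. Both were readily counted in both thymic samples and were at or near 0 in whisker. The ratio was 825 for Isl1 (95% counting interval 148 to 32640, on 1 whisker read) and 479 for Hoxa3 (85.7 to 18960, also on 1 read). Eya1, a transcriptional coactivator of pouch development, measured 7.43 and 6.93 CPM against 0.645 and 0.819 CPM (log2 fold change 3.25 ± 0.39, adjusted p = 3.44e-06). Foxa1, a pioneer factor of endodermal epithelia, was also called higher, at 4.71 ± 0.91 (4.12 without whisker replicate 1 and 5.32 without replicate 2). The signalling factor Bmp4, made in the thymic primordium, was higher by 2.44 ± 0.20.

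The list did not move as a block. Tbx1, another pharyngeal factor, measured 7.81 and 5.51 CPM in thymus and 83.2 and 107 CPM in whisker, a log2 fold change of -3.87 ± 0.20 (adjusted p = 2.24e-10). Aire, the regulator of tissue antigen expression in medullary thymic epithelium, was at 0.1699 and 0.165 CPM in thymus and 1.11 and 0.983 CPM in whisker, and was thus called lower in the thymic cells (log2 fold change -2.51 ± 0.46). The remaining 6 factors did not pass, among them Wt1 at 5.61 and 6.24 CPM against 3.13 and 2.95 CPM. Of 14 markers fixed for thymic epithelium, 8 could be named, and 4 were called higher, among them Isl1, Hoxa3 and Eya1, and 2 lower (Tbx1, Aire). Cd74 and Ciita, of the class II antigen presentation pathway, lay between 2.497 and 2.97 CPM in all 4 samples and were not called. Thus, against whisker cells alone, 4 of the 8 markers that could be read went with the thymic label, 2 went against it and 2 did not pass. Of the 11 markers fixed for the hair follicle 2 could be named, Edar and Krtap3-2, so that the whisker label could hardly be checked by them.

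Factors of ectoderm and skin appendages divided evenly, 4 higher and 4 lower of 18 tested (28 listed), with a median log2 fold change of 0.36. The largest difference lay on the whisker side. Tfap2b, an AP-2 factor of ectoderm and neural crest, measured 0.0425 and 0.03302 CPM in thymus and 45.2 and 51.8 CPM in whisker, so that whisker was higher by a ratio of 1311 (95% counting interval 363 to 10830, on 2 thymic reads). Irx4 (log2 fold change -4.12), Bcl11a (-1.59), a zinc finger factor also made in epidermis, and Dlx5 (-1.19), a distal-less homeobox factor, were lower in thymus as well. On the thymic side, Bnc2, a relative of the basal keratinocyte factor basonuclin, measured 5.82 and 6.24 CPM against 0.04605 and 0.164 CPM (log2 fold change 5.73 ± 0.71), but the whisker cells had held 9.98 and 10.2 CPM before transplantation. The chromatin organiser Satb1 (2.69) was called higher too. Without whisker replicate 1 Bnc2 was at 5.03 and Satb1 at 1.99, and without replicate 2 they were at 6.44 and 3.40. Dlx2 (1.47 ± 0.59, adjusted p = 0.0478) and Emx2 (1.01) lay close to the thresholds, and without replicate 1 of recovered thymus both missed them (1.39 and 0.94), which left 2 higher calls in this list. Dlx2 was also lost without thymus replicate 2 (1.57) and without whisker replicate 1 (0.74), and Emx2 without whisker replicate 2 (0.96). Edar, the ectodysplasin receptor that starts hair placodes, was higher in recovered thymic cells, at 4.42 and 3.37 CPM against 1.06 and 0.655 CPM (2.17 ± 0.32, adjusted p = 3.51e-05), while its ligand Eda and adaptor Edaradd were not called.

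**Figure D2:**
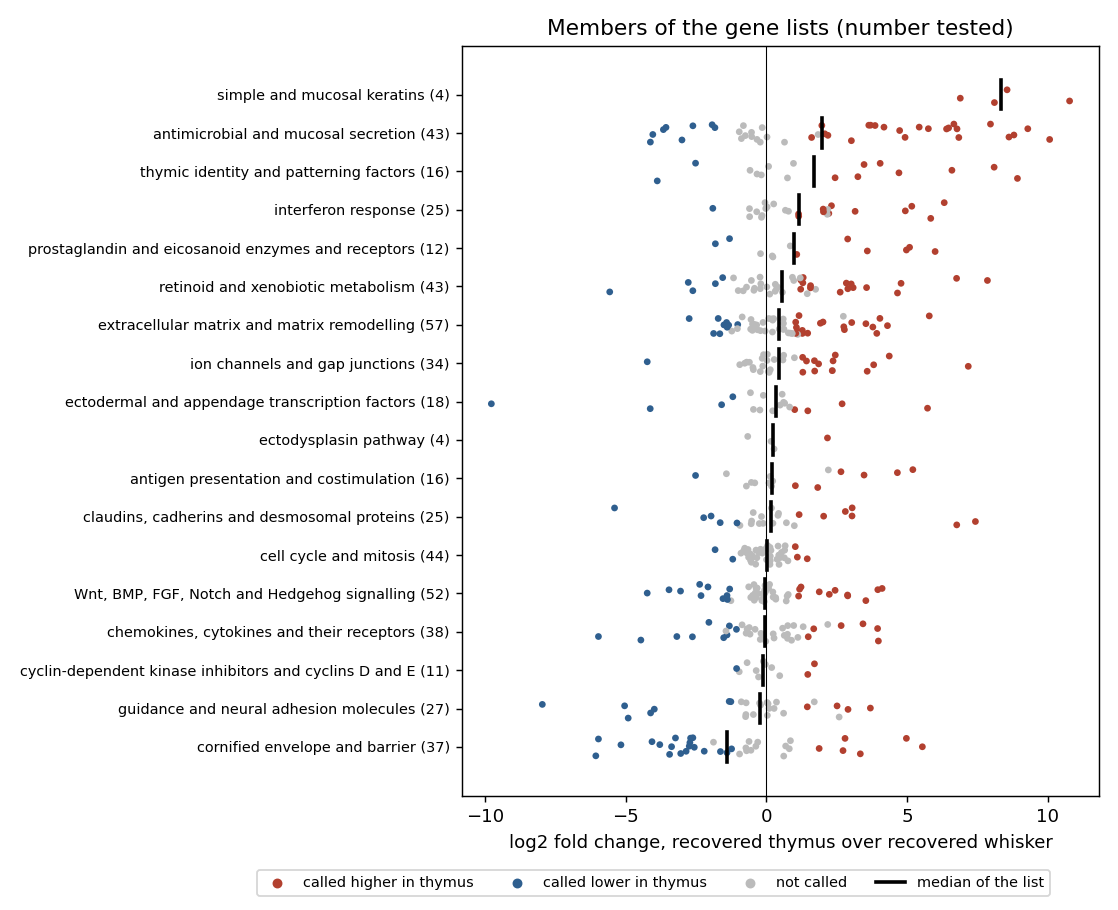
Each point is a member of a gene list, placed by its log2 fold change of recovered thymus over recovered whisker and coloured by its call, with the median of each list as a black bar and the number of members tested in parentheses. Simple and mucosal keratins (median 8.33) and secretion genes (1.97) lie to the right, and cornified envelope genes (-1.39) to the left of 0.

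Genes of mucosal secretion and defence were mostly higher in thymic cells where they differed. Of 43 listed genes, all tested, 23 were called higher and 8 lower in thymic cells, with a median log2 fold change of 1.97. The chloride channel Cftr, mutated in cystic fibrosis, measured 107 and 104 CPM in thymus and 0 and 0.368 CPM in whisker. Pigr, which carries secretory immunoglobulin across mucosal epithelium, measured 17.7 and 15.4 CPM against 0.04605 and 0 CPM. Gcnt3, which builds mucin core glycans, measured 14.2 and 13.01 CPM and had no read in either whisker library. The whisker libraries thus held almost no transcript of these 3 genes. Cftr differed by 10.06 ± 0.99 on the log2 scale (adjusted p = 4.16e-07), but the size rested on single whisker libraries of 0 and 9 reads, being 8.07 without whisker replicate 1 and 12.15 without replicate 2, and the ratio of summed reads, scaled by library size, was 541. Gcnt3 was at least 208-fold higher in thymus, taking 3 reads over both whisker libraries as the floor, and Pigr gave a ratio of 757 (95% counting interval 136 to 29930, on 1 read). Tspan1, a tetraspanin of secretory epithelia, had a log2 fold change of 8.62 ± 1.37, likewise on 5 and 0 whisker reads, with 10.37 without whisker replicate 1 and 6.73 without replicate 2.

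Beta-defensins, small peptides that kill microbes at epithelial surfaces, and urothelial membrane proteins followed the same order. Defb4 measured 56.4 and 47.02 CPM in thymus against 0.737 and 0.328 CPM in whisker (6.66 ± 0.46, or 6.06 without whisker replicate 2), Defb14 39.4 and 33.2 against 0.506 and 0.328 CPM (6.403 ± 0.46) and Defb1 19.6 and 17.2 against 0.414 and 0.246 CPM (5.76 ± 0.48). Upk1b, a uroplakin, measured 75.2 and 72.6 CPM against 1.66 and 1.72 CPM. Complement C3 was higher in thymus as well (3.71 ± 0.31), while the complement proteases C1r (-0.52, not called) and C1s (-1.92, called) were not. The 8 genes lower in thymus were led by Bpifc, Fxyd4, Duoxa2 and Atp12a. Fxyd4, a regulator of the sodium pump, stood at 3.44 and 2.94 CPM in thymus and 51.4 and 52.2 CPM in whisker (-4.03 ± 0.20). Duox2, an oxidase that makes hydrogen peroxide at mucosal surfaces, was lower at -2.61 together with its maturation factor Duoxa2 (-3.65), whereas Duox1 was not called (-0.15). Atp12a, a proton pump, differed between the whisker samples, at 8.01 and 2.99 CPM against 0.467 and 0.3302 CPM in thymus, and its log2 fold change was -2.90 without whisker replicate 1 and -4.33 without replicate 2.

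The cornified envelope and barrier genes moved the other way. Of 37 tested (44 listed), 19 were called lower and 6 higher in thymic cells, with a median log2 fold change of -1.39. Sbsn, suprabasin of the upper epidermis, measured 16.7 and 14.8 CPM in thymus and 169 and 171 CPM in whisker. Dsg1, the desmoglein of the upper epidermal layers, measured 3.65 and 3.99 CPM against 31.1 and 32.2 CPM. Calml5, a calcium-binding protein of late keratinocyte differentiation, measured 2.97 and 3.27 CPM against 51.4 and 53.7 CPM. The whisker samples were higher in all 3 genes with no overlap, and the log2 fold changes were -3.43 ± 0.16, -3.04 ± 0.27 and -4.06 ± 0.17 in turn. Il36rn, the antagonist of the skin cytokine interleukin-36, differed by -5.96 ± 0.22 (adjusted p = 5.18e-12). Casp14, the caspase of cornification (-2.85), and the protease Klk7 (-3.78), which frees corneocytes, were also lower. Alox12b, a lipoxygenase of the lipid barrier, had 1 read in the thymic libraries, and whisker exceeded thymus by a ratio of 60.7 (95% counting interval 10.4 to 2442).

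The 6 barrier genes that were higher in thymus included enzymes and signalling proteins. Padi1, which converts protein arginine to citrulline, measured 78.3 and 72.6 CPM in thymus and 1.43 and 1.76 CPM in whisker (5.54 ± 0.21). The lipoxygenase Alox12 stood at 139.5 and 139 CPM against 4.24 and 4.54 CPM (4.98 ± 0.20), and Fa2h, a fatty acid hydroxylase, at 37.4 and 34.6 against 3.78 and 3.32 CPM (3.34 ± 0.19). Calml3, a calmodulin-like protein of epithelium (2.797), Card14 (2.73), an activator of NF-kappa-B in keratinocytes, and Degs2 (1.88), a ceramide enzyme, completed the group. The thymic cells were thus not uniformly low in this programme.

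In cell adhesion, 7 genes were higher and 5 lower of 25 claudins, cadherins and desmosomal proteins tested (26 listed; median log2 fold change 0.18). Cldn7, a tight junction protein, measured 4.16 and 3.401 CPM in thymus and had no read in whisker, a difference of at least 57.4-fold. Cdh17, a cadherin of intestinal epithelium, likewise had no whisker read and was at least 36.6-fold higher at 2.89 and 1.98 CPM. Cdh2, N-cadherin, showed the reverse, at 0.212 and 0.3302 CPM in thymus and 10.8 and 13.4 CPM in whisker (-5.39 ± 0.45). Cdh17 and Cdh2 transcripts thus differed in opposite directions. E-cadherin (Cdh1), far more abundant than either in both tissues, was not called at 806 and 821 CPM against 976 and 957 CPM. Dsp, desmoplakin, was lower in thymus by just over the fold threshold (-1.04 ± 0.13; -0.93 without whisker replicate 2, where 3 genes of the list were called lower) and Cldn1, of the epidermal tight junction, was higher (2.04 ± 0.21). Cdh13, a cadherin held by a lipid anchor, stood at 30.9 and 29.7 CPM against 119 and 117 CPM (-1.96).

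Interferon response genes were mostly higher in thymic cells where they differed. Of 25 tested (32 listed), 11 were called higher and 1, Fam111a (-1.899), lower, and the median log2 fold change was 1.15. Irf8, a transcription factor of the interferon system, measured 72.6 and 75.6 CPM in thymus and 8.196 and 8.39 CPM in whisker (3.16 ± 0.10). Sp140, a nuclear body protein, measured 56.9 and 55.96 CPM against 0.737 and 1.23 CPM (5.84 ± 0.27), and Ifi47, an inducible GTPase, 37.2 and 37.2 against 1.47 and 0.983 CPM (4.94 ± 0.35). Slfn5 (5.17, or 5.76 without whisker replicate 2) and Ifit2 (2.32) were called as well. The chemokine Cxcl10, a widely used reporter of interferon action, was not called, at 20.1 and 18.5 CPM against 20.03 and 18.995 CPM, and the interferon-induced modifier Isg15 was not called at 0.79 ± 0.33. Ifitm1 had 1 whisker read and a ratio of 139.7 (95% counting interval 24.7 to 5552).

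Genes that interferons induce often carry a short element (GAAA, any 2 bases, GAAA) close to their start, and the promoters of 3 members are shown because they hold it and because 2 of the genes were called and the other was not. The element was searched on both strands in the 300 bases from 250 before to 50 after each RefSeq gene start of the GRCr8 assembly, a later build than that of the read counts. Sequences run 5′ to 3′ on the strand of the gene. Capitals mark the match, with 25 bases before it and up to 25 after it, not past the gene start, in lower case. In both caspase genes the element lies on the opposite strand and so reads as TTTC, any 2 bases, TTTC.
Irgm, called, chr10:33742579-33742637, minus strand: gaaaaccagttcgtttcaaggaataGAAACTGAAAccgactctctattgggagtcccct
Casp1, called, chr8:10872777-10872829, plus strand: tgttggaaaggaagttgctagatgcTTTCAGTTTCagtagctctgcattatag
Casp12, not called, chr8:10927125-10927184, plus strand: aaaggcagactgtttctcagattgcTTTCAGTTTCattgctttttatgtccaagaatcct
The element occurred in 3.92% of all 33469 promoters. Of 15 list members with a promoter entry, 8 held it, 3 of 6 among those called higher and 5 of 9 among the others. Irgm, a GTPase of defence against intracellular microbes, measured 24.8 and 25.9 CPM in thymus and 6.58 and 5.94 CPM in whisker (2.02 ± 0.12). Casp1, the inflammasome caspase, measured 26.03 and 26.4 against 12.2 and 11.5 CPM (1.15 ± 0.12), and its neighbour Casp12 36.4 and 37.2 against 45.5 and 47.7 CPM (-0.34). A match is a description of the letters in this window.

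Antigen presentation and costimulation genes gave 6 higher and 1 lower (Aire) of 16 tested (22 listed; median 0.21). Vtcn1, an inhibitory ligand for T cells, measured 21.2 and 21.9 CPM in thymus and 0.553 and 0.573 CPM in whisker (5.21 ± 0.40). The cathepsins Ctsh, Ctsl and Ctss, proteases of the endosome, were all higher, Ctsl being at 1795 and 1815 CPM against 891 and 873 CPM (1.03 ± 0.12, 0.9997 and thus not called without whisker replicate 2) and Ctsh at 80.7 and 79.3 against 12.8 and 12.7 CPM (2.65 ± 0.14). Ctsl, Clu (2.19), an extracellular chaperone, and Cyr61 (1.92), a matrix-bound growth regulator, had the most reads of the named genes called higher. Dsp, the glycolytic enzyme Aldoa (-1.11 ± 0.10) and the anchoring collagen Col7a1 (-1.504 ± 0.19) had the most among those called lower.

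Chemokines, cytokines and their receptors were called in both directions, with 6 higher and 9 lower in thymus of 38 tested (44 listed; median -0.06). The interleukin-1 family supplied several of the latter. The decoy receptor Il1r2 stood at 5.82 and 6.24 CPM in thymus and 35.3 and 39.5 CPM in whisker (-2.62 ± 0.12), Il1f10 at 0.0849 and 0.198 against 2.81 and 3.97 CPM (-4.45), and the receptor accessory chain Il1rap at 23.6 and 23.5 against 65.2 and 69.1 CPM (-1.51). All 3 were lower in both thymic samples than in both whisker samples. The membrane chemokine Cx3cl1 was higher in thymus, at 3.19 and 3.33 CPM against 0.506 and 0.491 CPM (2.66 ± 0.48), as was the interleukin-18 receptor chain Il18rap (3.43).

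Signalling pathways of hair and gland development were called in both directions, 11 higher and 10 lower of 52 Wnt, BMP, FGF, Notch and Hedgehog genes tested (63 listed; median -0.06). BMP ligands divided between the tissues. Bmp4, Bmp6 (2.89), Bmp8b (2.24) and Bmp3 (1.88) were higher in thymic cells together with the receptor Bmpr1b, at 7.81 and 8.85 CPM against 0.599 and 0.4503 CPM (3.96 ± 0.44), and the activin subunit Inhba (2.89). Bmp2, a BMP of the hair follicle, measured 1.27 and 1.62 CPM in thymus and 10.9 and 13.4 CPM in whisker (-3.05 ± 0.24). The BMP antagonist Chrd (-1.54) and the pseudoreceptor Bambi (-2.32) were lower in thymus too. Gli1, a target gene and effector of Hedgehog signalling, measured 0.764 and 0.6603 CPM in thymus and 12.9 and 14.2 CPM in whisker (-4.23 ± 0.29, adjusted p = 6.79e-09), while Disp2, a protein related to the transporter that releases Hedgehog ligands, was higher (4.11 ± 0.47) and Gli2 was not called (-0.36). Lgr4, a receptor that strengthens Wnt signals, was lower (-1.39). The ligand Wnt3 lay near the threshold (-1.30 ± 0.52, adjusted p = 0.0472) and lost its call when any 1 of the 4 samples was left out, and the secreted Wnt modulator Dkk3 had a ratio of 14.6 (95% counting interval 4.71 to 72.99, on 3 whisker reads). Beta-catenin (Ctnnb1) was not called at -0.07 ± 0.08.

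Guidance and neural adhesion molecules included some of the strongest whisker genes, with 4 higher and 7 lower of 27 tested (32 listed; median -0.21). Nfasc, neurofascin, stood at 0.127 and 0.198 CPM in thymus and 45.8 and 44.01 CPM in whisker (-7.96 ± 0.36, adjusted p = 3.9e-11). The cell adhesion molecule Chl1 measured 0.467 and 0.528 against 14.6 and 16.3 CPM (-4.905 ± 0.37), and the ephrin receptor Epha7 1.95 and 1.82 against 31.5 and 33.8 CPM (-4.11 ± 0.18). Both whisker samples were well above both thymic samples for each. The neurotrophin receptors Ntrk3 (-5.03 ± 0.50) and Ngfr (-3.98 ± 0.23) were on the whisker side, while the neurotrophin Bdnf was on the thymic side, at 12.8 and 14.3 CPM against 1.796 and 1.801 CPM (2.903 ± 0.22).

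Of 57 matrix genes tested, all that were listed, 19 were higher and 9 lower in thymic cells (median 0.46). Col8a1, a short-chain collagen, measured 144 and 163 CPM in thymus and 2.72 and 2.78 CPM in whisker (5.79 ± 0.40). Col11a1, a fibrillar collagen, measured 22.2 and 23.97 against 1.15 and 1.15 CPM (4.305 ± 0.33). Both differed with no overlap. Col5a3 showed the reverse order (-2.74), and the integrin chain Itgb8, which activates latent TGF-beta, was lower in thymus at 11.6 and 13.5 CPM against 32.2 and 34.8 CPM (-1.41 ± 0.16). The sulphotransferase Chst11 was not called (0.27 ± 0.12).

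Prostaglandin and eicosanoid genes gave 6 higher and 2 lower of 12 tested (median 0.97). Both cyclooxygenases were higher in thymic cells, Ptgs1 at 138 and 141 CPM against 4.74 and 3.56 CPM (5.09 ± 0.16) and Ptgs2 at 48.96 and 45.1 against 5.85 and 6.75 CPM (2.89 ± 0.22). The leukotriene receptor Cysltr1 had a ratio of 111 (95% counting interval 19.6 to 4435, on 1 whisker read). The synthase Ptges, which makes prostaglandin E2 from the cyclooxygenase product, was not called (-0.205 ± 0.11). Of the 2 lower calls, that of the phospholipase Pla2g2f (-1.305) was lost without thymus replicate 2 (-0.76) and without whisker replicate 1 (-0.89), which left 1.

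Retinoid and xenobiotic enzymes gave 16 higher and 5 lower of 43 tested (45 listed; median 0.57). Aldh1a3, which makes retinoic acid, stood at 105 and 99.97 CPM in thymus and 4.14 and 3.32 CPM in whisker (4.79 ± 0.23), whereas its relative Aldh1a1 was lower, at 2.38 and 2.05 against 13.6 and 13.3 CPM (-2.61 ± 0.19). Dhrs3, a retinal reductase, was higher (514 and 506 against 71.3 and 65.95 CPM). The carotenoid enzymes Bco1 (3.56) and Bco2 (-2.77) had opposite signs. Gstt3, a glutathione transferase, differed by 7.85 ± 0.73, and Pon3, a lactonase, by a ratio of 2299 (95% counting interval 636 to 18990, on 2 whisker reads) at 103 and 96.7 CPM in thymus. Between the recovered cells the members of both pairs, Aldh1a3 with Aldh1a1 and Bco1 with Bco2, thus differed in opposite directions. The whisker cells had held 52.9 and 59.9 CPM of Aldh1a3 before transplantation. Against those 1st round whisker cells the log2 fold change of Aldh1a3 in recovered thymus was 0.86 and was not called.

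Ion channels were higher in 13 and lower in 1 of 34 tested (37 listed; median 0.44). Piezo2, a mechanically gated channel, measured 3.10 and 3.47 CPM against 0.184 and 0.246 CPM (3.81 ± 0.47), Ano7 was at least 48-fold higher with no whisker read, and Asic2, an acid-sensing channel, was the gene called lower.

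**Figure D3:**
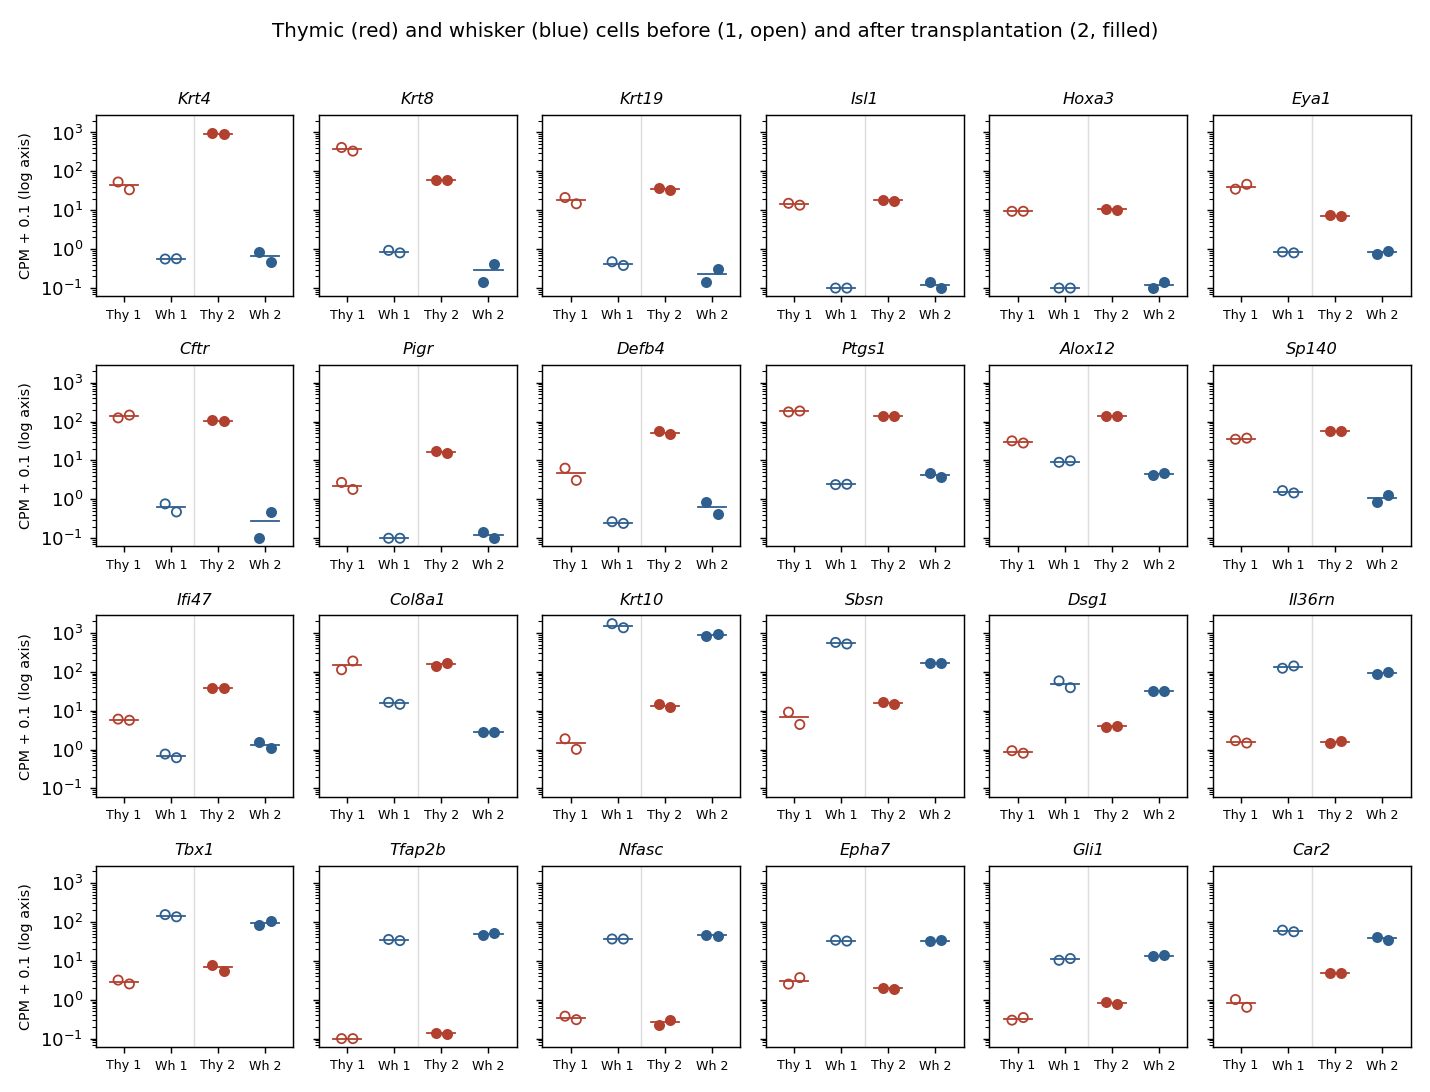
CPM in each sample (log axis after adding 0.1) for 24 genes in thymic (red) and whisker cells (blue) before transplantation (1, open circles) and after recovery (2, filled circles), with the mean of each pair as a bar. Krt4, Pigr, Defb4 and Ifi47 stand higher in recovered than in 1st round thymic cells, and Krt10 and Sbsn show a smaller gap after recovery than before.

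The same tissues before transplantation show which differences were already present. There 12.5% of genes were called higher and 10.4% lower in thymus. Of the 1390 genes called higher after recovery, 724 (52.1%) had been called higher before, 545 (39.2%) had not been called and 121 (8.71%) had been called lower. Of the 826 called lower, 478 (57.9%) had been lower before, 296 (35.8%) not called and 52 (6.30%) higher. The 2 comparisons use different samples. A test of the change itself, the thymus minus whisker difference after recovery less that before, was passed by 10.5% of genes upward and 8.13% downward. Among the genes called only after recovery it was passed by 302 of the 545 higher and by 141 of the 296 lower. A gene can pass because the thymic cells, the whisker cells or both differed between rounds, and the levels of all 4 groups are needed to tell these apart. For the comparison before transplantation and the test of change, the shares given are over all genes tested. Shares among genes with a symbol, which were rich in changed genes, were not computed. The list counts below for these comparisons therefore have no matching background.

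Some patterning factors did not pass the test of change. Isl1 stood at 15.002 and 13.4 CPM in 1st round thymic cells and at 0 in whisker, Hoxa3 at 9.29 and 9.32 CPM and 0, and neither passed the test of change (log2 -0.41 ± 0.86 and -0.63 ± 0.72). On the whisker side Tfap2b (35.3 and 32.9 CPM before), Nfasc (36.3 and 36.3 CPM) and Epha7 (33.8 and 32.01 CPM) likewise did not pass. Eya1 (-2.49 ± 0.54) kept its direction with a smaller gap. Krt4 was 53.2 and 33.5 CPM in thymic cells before transplantation, far below its level after, but the change of the difference from whisker was not called (4.32 ± 1.99, adjusted p = 0.0883). Krt8 went the other way, from 411 and 331 CPM, and was not called either (-0.32 ± 0.80).

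Cornified envelope genes showed a narrower gap after recovery. Before transplantation 26 of 37 had been called lower and 3 higher in thymus, with a median log2 fold change of -3.26 against -1.39 after. The difference between rounds was called upward for 22 and downward for 1, with a median of 2.04, against 0.01 over all genes. Krt10 moved from 1.79 and 0.911 to 14.4 and 12.02 CPM in thymic cells and from 1716 and 1351 to 821 and 917 CPM in whisker cells, a change of 4.13 ± 0.36 (adjusted p = 1.67e-07). Sbsn moved from 9.05 and 4.31 to 16.7 and 14.8 CPM in thymus and from 567 and 515 to 169 and 171 CPM in whisker (2.99 ± 0.27). Both cell types contributed in these genes, thymic cells having more and whisker cells fewer reads after recovery. Calml3 crossed over, from 5.75 and 3.64 to 183 and 167 CPM in thymus and from 94.6 and 89.8 to 24.1 and 26.1 CPM in whisker (7.12 ± 0.21, adjusted p = 1.11e-12).

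The cell cycle list converged. Before transplantation 25 of 44 genes had been called higher and 2 lower in thymus (median 1.17), whereas after recovery 3 were higher and 2 lower (median 0.03), and the difference between rounds was called downward for 25. Diaph3, an actin-organising formin, had the highest value, at 0.92 (adjusted p = 0.00175), short of the fold threshold. Aurkb, a mitotic kinase, measured 533 and 539.6 CPM in thymic cells before and 158 and 157 CPM after, and 117 and 116 CPM in whisker cells before and 188 and 191 CPM after (-2.47 ± 0.19). Cdc6, which loads the replicative helicase, measured 22.9 and 23.6 against 1.79 and 1.59 CPM before and 11.6 and 11.1 against 5.85 and 5.24 CPM after (-2.73 ± 0.46). In both genes the thymic value was lower and the whisker value higher after recovery. The DNA replication licensing genes Cdt1 (1.46), Orc1 (1.103) and Cdc6 (1.03) were the 3 still called higher, although without whisker replicate 2 Orc1 (0.95) and Cdc6 (0.93) missed the fold threshold, as did Cdc6, narrowly, without thymus replicate 1. The cytokinesis kinase Cit (-1.82) and the phosphatase Cdkn3 (-1.19) were the 2 called lower. Of 11 cyclins and kinase inhibitors tested, Cdk6 (1.71) and Cdkn2b (1.47) were higher and cyclin E1, Ccne1 (-1.05), lower after recovery, the last at -0.87 and not called without whisker replicate 1, while without thymus replicate 1 the list had 2 lower calls. Cdkn2a measured 133 and 96.3 CPM in thymic cells before and 27.6 and 27.1 CPM after, against 32.5 and 26.8 CPM in recovered whisker cells.

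**Figure D4:**
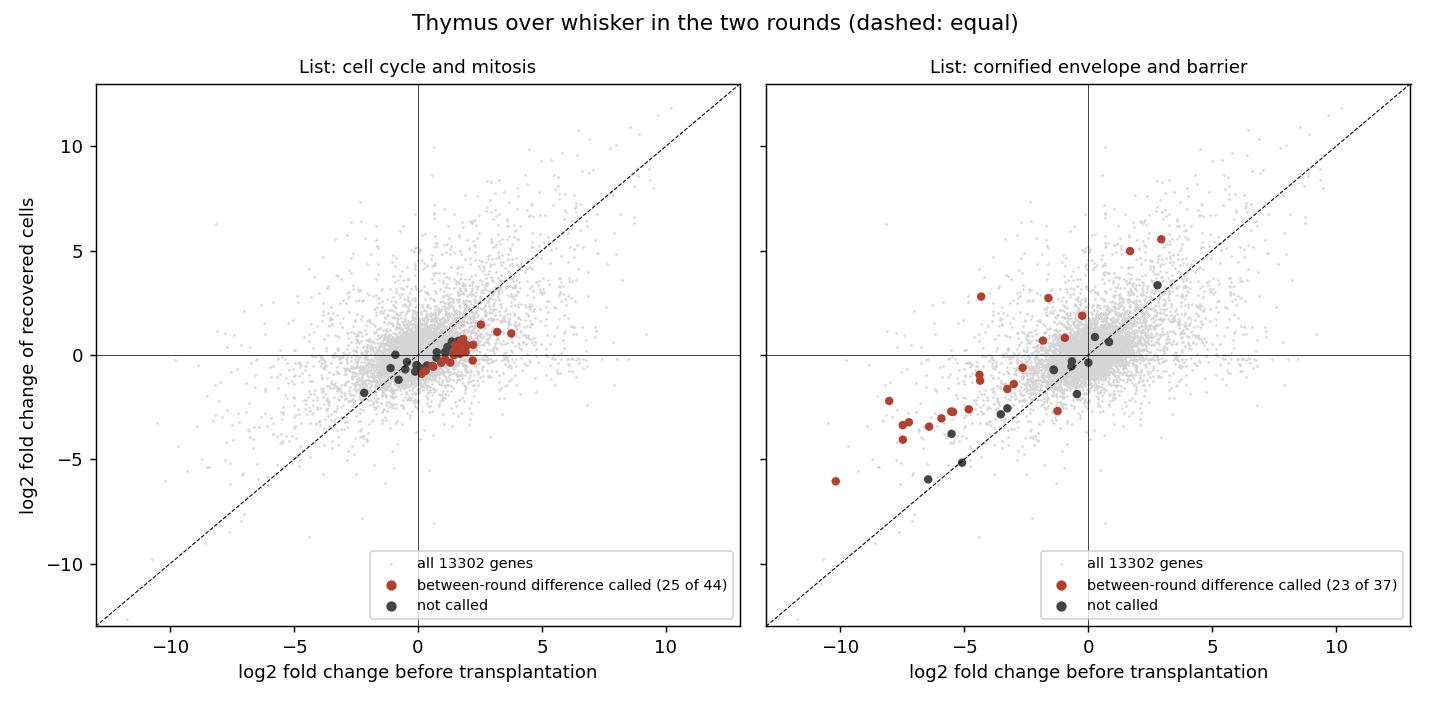
Log2 fold change of thymus over whisker before transplantation (horizontal) and after recovery (vertical) for all genes (grey) and for the cell cycle (left) and cornified envelope lists (right), with members called for the difference between rounds in red and the line of equal values dashed. Red cell cycle genes lie below the line, 25 of 44, and red cornified envelope genes lie above it but for 1.

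Secretion and defence genes shifted towards thymus. Before transplantation 19 of 43 had been called higher and 14 lower in thymus, against 23 and 8 after. Their median log2 fold change was 0.03 before transplantation and 1.97 after. The difference between rounds was called upward for 21 and downward for 3, with a median of 1.92. Upward calls included genes whose whisker excess became smaller, such as Fxyd4 (-6.66 before and -4.03 after). Defb14 measured 4.52 and 2.28 CPM in thymic cells before and 39.4 and 33.2 CPM after (2.81 ± 0.72, adjusted p = 0.00515), and Anxa9, a protein of the annexin family, 3.06 and 1.82 before and 88.4 and 85.6 CPM after (6.72 ± 0.39). In whisker cells Anxa9 was at 6.78 and 7.87 CPM before and 2.81 and 2.25 CPM after, so that thymus and whisker exchanged their order. Matrix genes were also called upward more often, with 23 upward and 4 downward of 57, but their gap did not widen. Before transplantation 11 had been called higher and 26 lower in thymus, against 19 and 9 after. Their median log2 fold change was -0.81 before and 0.46 after.

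The recovered cells of bladder, trachea and vagina place these values. Set against the mean of these 3 tissues, recovered thymic cells were higher for 8.50% of genes and lower for 5.99%. This comparison shares the thymic samples with the whisker comparison, so agreement between them is partly built in, and the overlap is given as a count only. Of the 1390 genes higher than in whisker, 719 were also higher than in the other 3 tissues, 612 were not called there and 59 were lower. Of the 826 lower, 337 were also lower, 453 not called and 36 higher.

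Some secretion and barrier genes were higher in thymic cells than in all other recovered tissues. Defb4 measured 0.524 and 0.387 CPM in bladder, 0 and 0 in trachea and 0.377 and 0.244 in vagina, all far below 56.4 and 47.02 CPM in thymus (8.46 ± 0.40 against their mean, adjusted p = 5.15e-11). Cftr measured 2.95 and 3.01 CPM in bladder, 7.18 and 6.16 CPM in trachea and 0.251 and 0.418 CPM in vagina (5.79 ± 0.27). Alox12 measured 3.38 and 4.13 CPM in bladder, 4.46 and 3.903 CPM in trachea and 3.06 and 3.03 CPM in vagina (5.26 ± 0.13). Each gene was higher in both thymic samples than in all 8 other recovered samples. The 3 genes were named because they had the highest values of this comparison. The choice was made among genes with a symbol also called higher than in whisker, with at least 10 CPM in both thymic samples. Their order was therefore largely built into the choice. Hoxa3 had the same order (1.14 and 1.08 CPM in bladder, 0.04695 and 0.0365 CPM in trachea and 1.51 and 1.53 CPM in vagina), as had Bmp4 and Col11a1. Others were not particular to thymus. Isl1 was highest in thymus but was also counted in trachea (9.30 and 10.4 CPM) and vagina (6.03 and 4.94 CPM), and was near 0 in bladder. Krt8 was higher in bladder (276 and 281 CPM) and trachea (242 and 257 CPM) than in thymus, Pigr in bladder (16.9 and 13.9 CPM) was like thymus, Tspan8 was higher in bladder (1124 and 1130.2 CPM) and Foxa1 was highest in bladder (51.04 and 52.5 CPM).

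**Figure D5:**
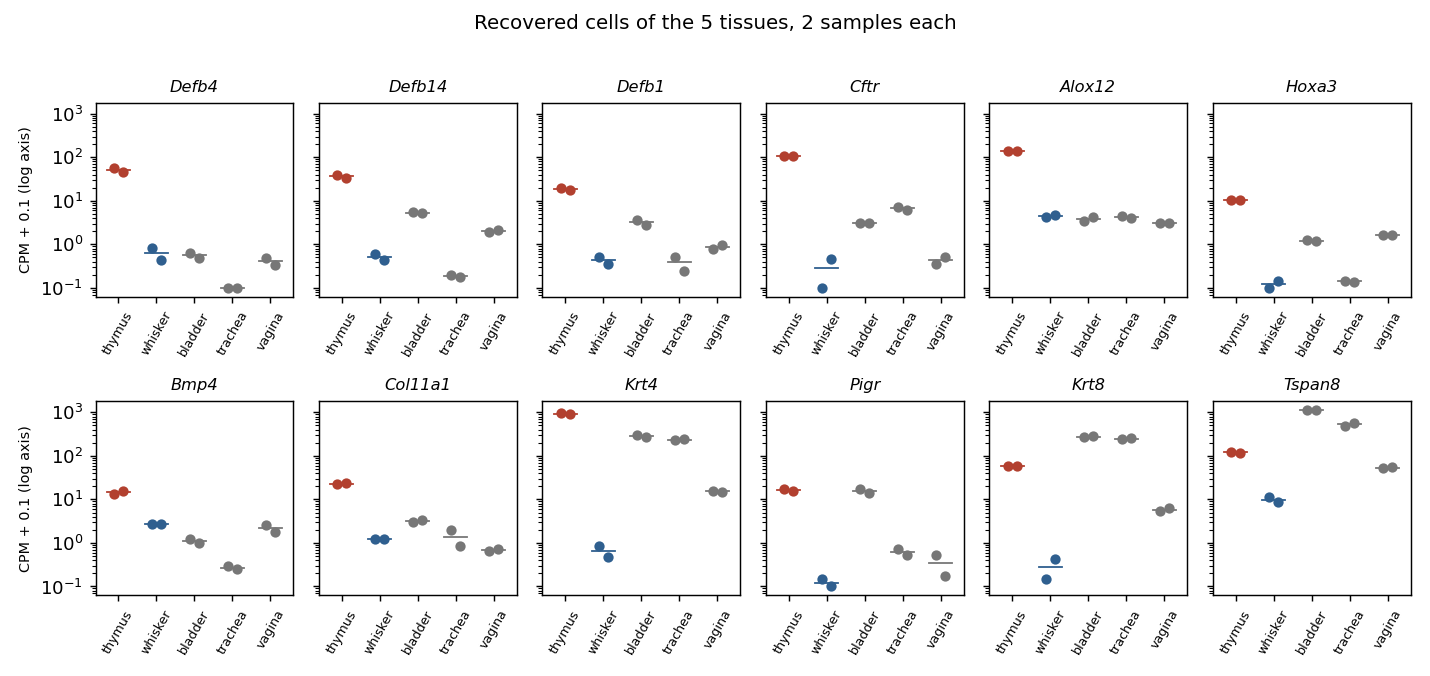
CPM (log axis after adding 0.1) of 12 genes in the recovered cells of 5 tissues, 2 samples each, thymus in red, whisker in blue and the others in grey, with means as bars. Defb4, Cftr, Alox12 and Hoxa3 are highest in thymus, whereas Krt8 and Tspan8 are higher in bladder and trachea.

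On the low side, Fxyd4 (-3.103), Cyp2t1, a cytochrome P450 (-3.25), Ccne1 (-2.74) and Cdh13 (-2.35) had the lowest values against the other 3 tissues among genes with a symbol that were also lower than in whisker and that held at least 10 CPM in every recovered sample of the other 3. Some low thymic values were shared with some or all of the other tissues. Tfap2b was at 0 in bladder and trachea but at 8.42 and 8.14 CPM in vagina, which lay between thymus and whisker. Nfasc was at 0.503 and 0.557 CPM in vagina and lower in bladder and trachea, so that for Nfasc it was the whisker cells that stood apart.

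The lowest values of the main comparison belonged to Eif2s3y, encoded on the Y chromosome, and to a gene listed as Ddx3 with the same pattern. Eif2s3y had no read in either recovered thymic library and 122 and 118 CPM in whisker, at least 2148-fold, and Ddx3 98.9 and 129 CPM, at least 2063-fold. Eif2s3y was also high in bladder (115 and 125 CPM) and at or near 0 in trachea and vagina. Before transplantation the order was the same, with 0 and 0.0414 CPM of Eif2s3y in thymic cells and 117 and 124 CPM in whisker cells. The sex of the donors was not in the labels used here, and a difference of sex cannot be told apart from the tissue.

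Bulk libraries do not separate fewer cells of a type from less RNA per cell, and RNA of other cells was checked by marker lists. Of 10 blood cell markers 5 could be named, and 3 (Lcp1, Cd53 and Coro1a) were called higher in thymus, where the 5 summed to 5.10 and 5.58 CPM against 0.32 and 0.41 CPM in whisker. Cd28 was at 0 in whisker and at most 0.066 CPM in thymus. Of 11 fibroblast markers 8 could be named, 2 (Col3a1 and Col6a3) being called higher. They summed to 91.4 and 96.7 CPM in thymus and to 101 and 81.0 CPM in whisker, so that the groups overlapped. Of 4 endothelial markers Egfl7 was lower in thymus (sums 3.78 and 4.23 against 6.68 and 6.47 CPM). Acta2, of smooth muscle, was at 16.3 and 15.1 CPM in thymus and 0.414 and 0.205 CPM in whisker, and the melanosome transporter Mlph at 5.95 and 5.32 against 0.04605 and 0 CPM. The part of such cells in the matrix, interferon and antigen presentation results was not tested. Col17a1, the one basal keratinocyte marker that could be named, was at 2633 and 2797 CPM in thymus and 4856 and 4966 CPM in whisker and was not called.

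Defensins, cytochromes, glutathione transferases, keratins and interferon-induced GTPases have close copies in the rat genome, and reads that fitted more than 1 place were not counted, so their levels are uncertain.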

How the data were processed

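RNA from EGFP-sorted cultured rat cells was sequenced as single reads of poly(A) libraries (TruSeq Stranded). Per the labels and the study's methods, the authors trimmed reads with cutadapt 1.8, removed ribosomal and low-complexity reads, aligned the rest to Rnor 6.0 with STAR 2.5.2b and counted reads per Ensembl release 87 gene with HTSeq 0.6.1. The strand setting is not given in the sources used here. The deposited files hold raw counts. Reads outside genes (9.76 to 13.4% in the 4 samples) and reads with several alignments (28.8 to 34.5%) stood in rows of their own and were left out. Names came from the study's tables, and their fold changes and p-values were not used.

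Counts were scaled by TMM (edgeR 4.0.16) and fitted with limma voom 3.58.1 in R 4.3.3, the tools the study's methods name, in later versions. One model with 1 mean for each of 10 groups over 20 samples (10 residual degrees of freedom) was a choice made here. The study gives its threshold as a fold of 2 and, in its methods, as a log2 fold change of 2, and the former was used. Genes needed 1 CPM in 1 sample. P-values were adjusted by Benjamini-Hochberg over all genes of a comparison, and errors are SE unless stated. An exact permutation test of 2 against 2 samples cannot go below p = 0.33. Ratios on 1 to 3 reads carry exact 95% intervals, which, like the floor of 3 reads, cover counting error only. Tested on simulated data for this comparison (12470 genes, 200 changed), the fit recovered 97% of those 200 with 2 false calls. All planted changes lay well above the fold threshold and in genes with a mean of at least 1 CPM, and every other gene had the same mean in all groups. Recovery close to the threshold or at lower levels was therefore not tested. Recovery in the measured data, where 16.7% of genes were called, was not tested.

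Alternatives were edgeR, DESeq2 1.42.0, its size factors, other filters, a fold of 4, fewer samples, a replicate block, the 1st round reference and each replicate left out. Named genes were the 8 highest and 8 lowest fold changes at 10 CPM or more, up to 4 called members of each list in each direction, the 4 extremes between rounds and against the other tissues, the 3 with most reads in each direction and genes the study names, with further list members given by value only. Members and lists were chosen with earlier results of these data known. Some genes covered by this rule are not reported here.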

Additional observations from a re-analysis of the deposited data

Results flagged for a closer look

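The thymus minus whisker difference changed between rounds for 2477 genes by the limma test of the difference itself. Among genes with a symbol that were also called between the recovered cells and held at least 10 CPM in both samples of at least 1 of the 4 groups, the largest upward values were those of Casp1 (9.26 on the log2 scale), Aass (7.36), Calml3 (7.12) and Anxa9 (6.72), and the largest downward values those of Ifit2 (-5.26), Dmrt2 (-4.62), Armcx6 (-4.46) and Cxcl1 (-3.995). Under that level, Bnc2 (8.597), Cyp1b1 (7.35) and Piezo2 (7.12) had upward values of the same size.

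Casp1 was at 0.159 and 0 CPM in thymic cells before transplantation and at 26.03 and 26.4 CPM after, while whisker cells held 18.4 and 15.7 CPM before and 12.2 and 11.5 CPM after. Aass, an enzyme of lysine breakdown, was at 0.397 and 0.414 CPM in thymic cells before and 2.55 and 3.302 CPM after, but most of its difference lay in the whisker cells, which held 12.7 and 11.8 CPM before and 0.553 and 0.4503 CPM after. Ifit2, an interferon-induced antiviral protein, was at 42.03 and 43.2 CPM in thymic cells before and 11.2 and 11.1 CPM after, against 0.125 and 0.328 CPM in whisker cells before and 2.49 and 2.01 CPM after. Dmrt2, a DM-domain transcription factor, held 22.1 and 17.4 CPM in thymic cells before and 18.9 and 17.8 CPM after, and in whisker cells stood at 0.0416 and 0.0469 CPM before and 1.52 and 1.47 CPM after. Armcx6 also differed chiefly in whisker cells, at 2.25 and 2.11 CPM before and 15.1 and 12.4 CPM after, against 1.55 and 0.787 CPM in thymic cells before and 0.212 and 0.396 CPM after. The chemokine Cxcl1 was at 217 and 181 CPM in thymic cells before and 36.9 and 36.9 CPM after, and at 26.7 and 24.98 CPM in whisker cells before and 76.2 and 77.5 CPM after, so that its order was reversed. The whisker cells were clone 7 before and subclone 14 after, and the thymic cells are called clone 9 before and bulk after, so that clone and round cannot be told apart.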

How the results depend on the processing

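The count for recovered thymus against recovered whisker (2216) lay between 1941 and 2781 over the other tests, scalings, filters, sample sets, block and reference. A fold of 4 in place of 2 left 1074 genes there (766 higher, 308 lower), 1503 before transplantation, 1132 for the difference between rounds and 758 against the other 3 tissues. Leaving out 1 sample gave 2028 to 2091, 2886 to 3153, 2125 to 2857 and 1721 to 1924 in the same order. Samples with the same number shared only a number (correlations of deviations -0.112 to 0.24 over 21 pairs of groups), and the replicate block gave 2225 genes. With 1st round whisker cells as reference, 6 named genes changed sign: Bnc2 (-0.73), Dlx2 (-0.022), Cldn17 (0.10), Ctsh (-0.87), Aass (-2.05) and Cxcl1 (0.51). The thymic samples being the same, only the whisker level of the other round enters these changes. Of 1677 values of 131 named genes, 1626 kept direction and call and 45 lost the call. With the 1st round reference 13 genes lost it, among them Clu (0.96), Calml3 (0.92), Aldh1a3 (0.86) and Casp1 (0.62). In the other settings Dlx2 lost the call in 7 of 12, Wnt3 in 6 of 9, Pla2g2f in 4, and Bmp8a and Cldn6 in 3 each. Of 480 list counts, 468 stayed within 1.5 times. The cell cycle, cornified envelope and secretion lists were also run between rounds under the same settings, an alternative chosen after seeing the data. Cell cycle genes were then downward in 20 to 26, cornified envelope genes upward in 21 to 23 and secretion genes upward in 17 to 22. Depth limits low genes, and 2 samples a group limit every p.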
